A study of Mus musculus with 4 samples.

Results

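The transcripts described here encode 9 factors that guide the step from dividing progenitor to neuron: the zinc-finger proteins St18, Myt1 and Myt1l, which form the MYT family, the zinc-finger repressor Insm1, the basic helix-loop-helix activators Neurod1 and Neurod4, the SOX proteins Sox4 and Sox11, and the repressor Rest. Members were taken by gene symbol from the annotation of the array platform. Of the 9 listed genes, 8 had a probe set, 1 each, among 19505 named genes, and Neurod1 was not analysed here. The 9 were selected on knowledge of the deltamethrin minus vehicle differences of these same arrays, so those differences are given as a description and carry no test.

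The cells were Neuro-2a (IFO50081), a neuroblastoma line from an albino strain A mouse. All arrays came from this 1 line. Cells near confluence received either deltamethrin, a pyrethroid insecticide that acts on voltage-gated sodium channels, at 30 µM, or the vehicle, DMSO at 0.1%, for 24 h. Each group had 2 Clariom S Mouse arrays, and the question was how expression differs between exposed and vehicle-treated cells. No label states that the arrays of a group came from separate cultures, so the spread between these arrays may be technical. No batch was named, so a batch effect and the treatment cannot be told apart. The SE of a log2 fold change is moderated: it draws the spread of a gene's own arrays towards that of all probe sets. Values are RMA signals on a log2 scale, where a difference of 1 is a doubling. RMA signals carry the probes' own brightness, so each gene is compared only with itself.

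The MYT proteins bind DNA at the core AAGTT through clustered zinc fingers and recruit SIN3, LSD1 and histone deacetylase complexes. Myt1l is known for holding non-neuronal programmes silent in neurons, and Myt1 for opposing Notch signalling during neurogenesis. St18 is also studied in pancreatic islets. Insm1 marks neurogenic and neuroendocrine progenitors. NEUROD proteins activate neuronal genes together with E proteins, Sox4 and Sox11 act in young neurons, and Rest silences neuronal genes outside the nervous system.

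In deltamethrin-treated cells St18 was lower, by -1.38 ± 0.24 (log2 fold change ± SE, n = 2 per group), and Myt1 was higher, by 0.78 ± 0.18. Sox11 was lower by a smaller amount, -0.38 ± 0.16. Without moderation the SE was 0.32 for St18, 0.13 for Myt1 and 0.05 for Sox11. For St18, Myt1 and Sox11 the arrays of the 2 groups did not overlap, as for 43.9% of all probe sets. The remaining 5, namely Myt1l, Insm1, Neurod4, Sox4 and Rest, overlapped between groups, with estimates between -0.09 and 0.29. In bulk RNA, fewer cells of a kind and less RNA per cell cannot be told apart.

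Promoter sequence is shown for Myt1 and Sox11, which differed without overlap and have an entry in the RefSeq promoter table (GRCm38.p6), and for Sox4, the paralog of Sox11 whose arrays overlapped. Each line gives the 250 bases before an annotated start, 5′ to 3′ on the gene's strand, and capitals mark the MYT core AAGTT on either strand, where AACTT is the same core on the other strand. Myt1 is the first of its 3 listed starts, at chr2:181763082-181763331 on the plus strand. Sox11 is at chr12:27342719-27342968 and Sox4 at chr13:28953700-28953949, both on the minus strand.
Myt1: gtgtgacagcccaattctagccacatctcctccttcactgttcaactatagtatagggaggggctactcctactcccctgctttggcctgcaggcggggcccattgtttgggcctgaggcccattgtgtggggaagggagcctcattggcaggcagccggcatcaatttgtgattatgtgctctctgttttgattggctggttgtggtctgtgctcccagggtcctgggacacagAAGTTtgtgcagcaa
Sox11: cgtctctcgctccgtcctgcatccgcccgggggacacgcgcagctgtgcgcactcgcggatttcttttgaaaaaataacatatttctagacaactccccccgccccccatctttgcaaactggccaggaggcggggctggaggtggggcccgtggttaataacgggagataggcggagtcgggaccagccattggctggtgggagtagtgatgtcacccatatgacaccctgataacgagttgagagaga
Sox4: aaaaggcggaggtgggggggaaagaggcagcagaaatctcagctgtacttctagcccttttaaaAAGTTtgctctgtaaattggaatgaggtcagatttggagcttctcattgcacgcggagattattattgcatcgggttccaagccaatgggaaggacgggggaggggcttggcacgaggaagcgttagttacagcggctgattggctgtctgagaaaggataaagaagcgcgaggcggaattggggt
The Myt1 window held 1 match, from 15 to 11 bases before the start. The Sox4 window held 1 match, from 186 to 182 bases before the start, and these letters are not in the Sox11 window. Of all 32851 windows of this length in the table, 35.3% held at least 1 match on either strand. In all, 6 of the 9 genes had an entry; St18, Insm1 and Rest did not. The E-box letters CANNTG, bound by basic helix-loop-helix dimers, were searched in the same windows with 0 overlaps between the motifs in these 3 windows. They occurred 2 times in the Sox11 window, 1 time in that of Sox4 and 0 times in that of Myt1, against 66.2% of all windows with at least 1. The windows at starts 2 and 3 of Myt1, not shown, held 1 core match each, and 2 and 1 E-box matches. A match is a run of letters and not a bound site.

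St18, also known as MYT3, read 11.96 and 11.99 on the vehicle arrays and 10.91 and 10.28 on the deltamethrin arrays. The vehicle arrays lay close together, both deltamethrin arrays lay below them, and deltamethrin array 2 was the lower. The mean went from 11.98 ± 0.02 to 10.60 ± 0.45 (SD, n = 2), a 2.60-fold lower signal. The gap from the lowest vehicle array to the highest deltamethrin array was 1.05, wider than the 0.63 between the deltamethrin arrays. Among all 22206 probe sets the St18 estimate ranked 15 from the lowest.

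Myt1, the founding member of the family, read 10.74 and 10.94 with vehicle and 11.70 and 11.54 with deltamethrin. Both exposed arrays lay above both vehicle arrays. The mean went from 10.84 ± 0.14 to 11.62 ± 0.11, a 1.72-fold higher signal, and the estimate ranked 519 from the highest. St18 and Myt1 thus differed in opposite directions on each exposed array. Set against the vehicle mean, deltamethrin array 1 was at -1.06 for St18 and 0.86 for Myt1. Array 2 was at -1.69 for St18 and 0.70 for Myt1. The difference between the log2 changes of the pair was -2.16, with -1.92 on array 1 and -2.40 on array 2. The array with the lower St18 was therefore not the one with the higher Myt1.

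Myt1l, the family member tied to mature neurons, read 5.19 and 5.51 with vehicle and 5.47 and 5.06 with deltamethrin. The groups overlapped and the estimate was -0.09 ± 0.22. Its mean lay below 5.6, the median of all probe sets, and the deposited table holds no detection call, so a dim signal of this kind cannot be told from background. The 2 MYT genes that differed were both above that median.

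**Figure D1:**
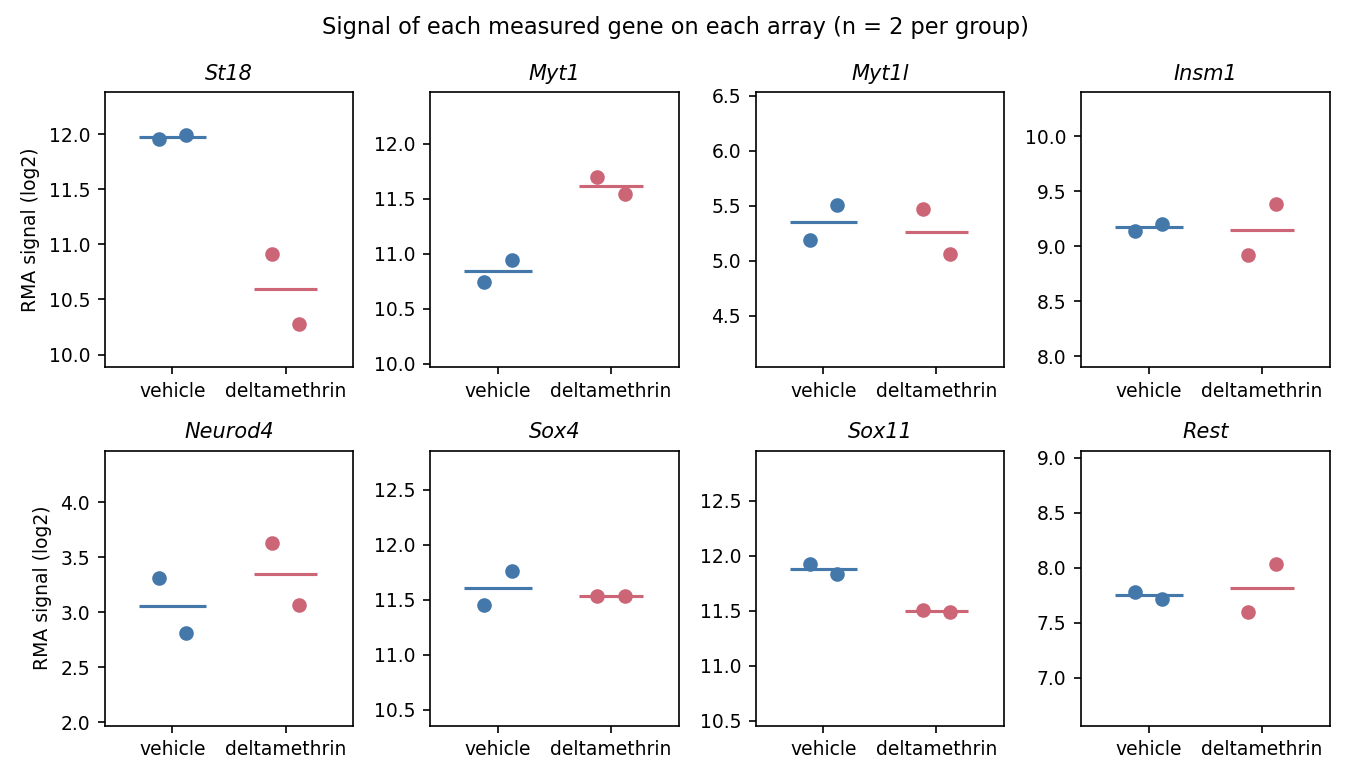
RMA signal (log2) of the 8 measured genes on each of the 4 arrays, with points for arrays and lines for group means (n = 2). Every panel spans the same log2 range around its own values. St18 shows deltamethrin arrays at 10.91 and 10.28 below vehicle arrays at 11.96 and 11.99, Myt1 shows the opposite order, and Sox11 shows a small step down.

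In the SOX pair the groups were apart for 1 gene and overlapped for the other. Sox11, which activates genes of immature neurons, read 11.92 and 11.83 with vehicle and 11.51 and 11.49 with deltamethrin. Replicate arrays were close and the groups did not overlap, with a gap of 0.32 and a 1.30-fold lower signal. Sox4, which shares much of that role, read 11.45 and 11.76 with vehicle and 11.53 on both deltamethrin arrays. The exposed arrays lay between the vehicle arrays, and the estimate was -0.07 ± 0.18. The change of Sox11 minus that of Sox4 was -0.29 on array 1 and -0.31 on array 2, about as wide as the 0.31 between the vehicle arrays of Sox4.

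Insm1, the zinc-finger repressor of neuroendocrine progenitors, read 9.14 and 9.20 with vehicle and 8.92 and 9.38 with deltamethrin. The exposed arrays straddled the vehicle arrays, and the estimate was -0.02 ± 0.21. Neurod4, a proneural activator also called Math3, was dim throughout, at 3.31 and 2.81 with vehicle and 3.63 and 3.07 with deltamethrin. Its groups overlapped, and its estimate of 0.29 ± 0.26 rests on signals below the median of all probe sets. Rest, the silencer of neuronal genes, read 7.78 and 7.72 with vehicle and 7.60 and 8.03 with deltamethrin. One exposed array was below and one above both vehicle arrays, for an estimate of 0.06 ± 0.20 whose sign turned under quantile normalization (-0.03).

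Over the whole table, limma at an adjusted p below 0.05 called 0.432% of probe sets, 79 higher (0.356%) and 17 lower (0.0766%), and 0 of the 8 measured members were among them. At an unadjusted p below 0.05 there were 2 of the 8 members and 13.7% of all probe sets. That share is set beside the counts at an unadjusted p given for the lists. Several lists hold mostly bright genes, such as the Rest targets, with 22 of 27 above the median of all probe sets. Without dim probe sets the share at that p was larger, 2695 of 13320. The groups did not overlap for 3 of the 8 members and for 43.9% of all probe sets. With a mean-variance trend, which lets the expected spread depend on the signal level, 3.63% of probe sets were called (2.25% higher and 1.38% lower), and St18 (lower) and Myt1 (higher) were among them. Without dim probe sets 2.34% were called (0.548% lower), St18 among them and Myt1 not. The median log2 change was -0.05 over the 8 members and -0.02 over all probe sets. Since the members were picked with this contrast in view, nothing further is read from these counts.

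**Figure D2:**
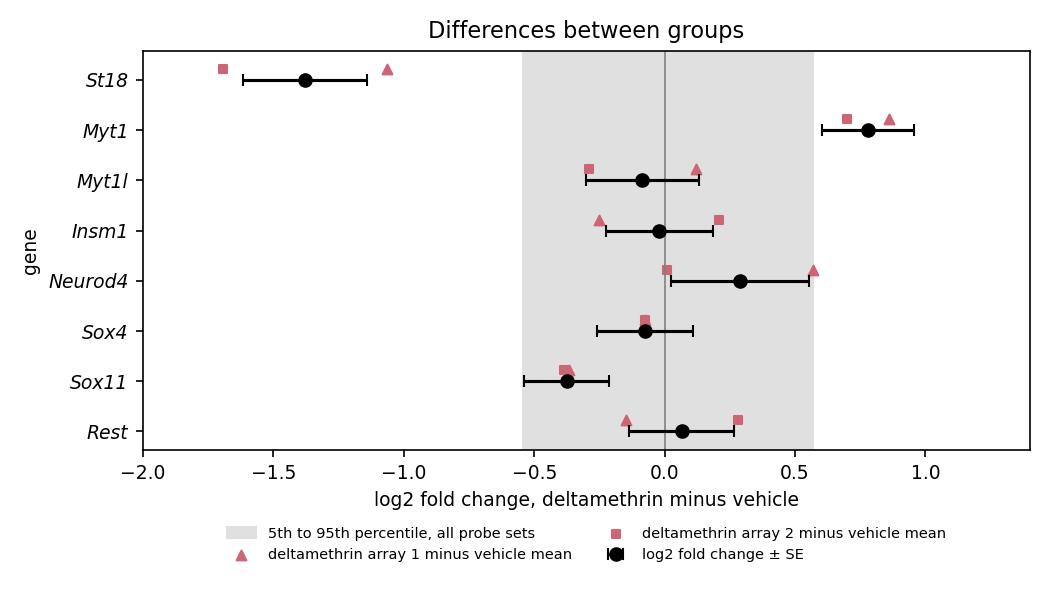
Log2 fold change, deltamethrin minus vehicle, for each measured gene (black points, bars ± SE, n = 2 per group), with each deltamethrin array minus the vehicle mean in red. The grey band runs from the 5th to the 95th percentile of all probe sets, -0.55 to 0.57, and the estimates of St18 and Myt1 lie outside it on opposite sides.

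The line's own markers were present. Of 14 sympathoadrenal and neuronal markers 11 were measured, and all 11 had a mean above the median of all probe sets. Their summed linear signal was lower with deltamethrin, from 167570 to 178304 against 205950 to 208075 with vehicle. Brighter genes weigh more in this sum, Stmn2 most, at a mean of 16.63. The median log2 change of the 11 was -0.27, with 0 called in limma and 2 with the trend. Of 32 markers of astrocytes, oligodendrocytes and Schwann cells, microglia and macrophages, fibroblasts and pancreatic islets, 27 were measured and 0 lay above that median. The means of these markers lay from 2.925 to 5.13, a level that cannot be told from background. For 3 of these dim lists the summed linear signal did not overlap between groups, as for 43.9% of all single probe sets. It was lower with deltamethrin for the 6 islet genes (101 to 109 against 120 to 153) and the 6 astrocyte genes (119 on both arrays against 127 to 144). It was higher for the 5 microglia and macrophage genes (59 to 65 against 51 to 55). The part of any of these marker sums in the differences of St18, Myt1 and Sox11 was not tested.

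Partners and targets of these factors were read from 9 lists, with the brightest probe set standing for each gene. The lists were chosen with earlier results of these data known, so their counts and p-values are given as a description. Calls with the trend stand beside 2.25% higher and 1.38% lower over all probe sets. For the corepressors that MYT proteins, Insm1 and Rest recruit, 0 of 13 measured genes were called in limma in either direction (2 at an unadjusted p below 0.05), and the median log2 change was -0.09, against -0.02 for all probe sets. Groups did not overlap for 4 genes on the lower side and 0 on the higher side, where all probe sets gave 23.5% and 20.3%. The scaffold Sin3a read 14.78 and 14.79 with vehicle and 14.28 and 14.29 with deltamethrin. Its replicates were nearly equal and its groups apart, with a difference of -0.50 ± 0.16 (limma adjusted p = 0.268). The deacetylase Hdac2 read 15.69 and 15.80 with vehicle and 15.32 and 15.31 with deltamethrin, a difference of -0.43 ± 0.16 (adjusted p = 0.335). Both were called lower with a mean-variance trend. The sister deacetylase Hdac1 overlapped between groups, at -0.09 ± 0.18.

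Genes that process Rest showed 0 calls in limma among 6 measured (0 at an unadjusted p below 0.05), with a median of -0.09. With the trend 0 were called as well. Srrm4, the splicing factor that makes the truncated neuronal Rest isoform, read 6.41 and 6.47 with vehicle and 6.65 and 6.85 with deltamethrin, a difference of 0.31 ± 0.17 (adjusted p = 0.492). Usp7, a deubiquitinase that stabilises Rest, was at -0.35 ± 0.20 (adjusted p = 0.497).

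Genes that Rest is known to silence were split. Of 27 measured targets 0 were called in limma (7 at an unadjusted p below 0.05, against 13.7% of all probe sets), 12 had higher and 15 lower estimates, and the median was -0.07. The synaptotagmin gene Syt4 read 13.49 and 13.51 with vehicle and 14.34 and 14.32 with deltamethrin. Replicates agreed within 0.02 and the groups were far apart, at 0.83 ± 0.16 (adjusted p = 0.126). The adhesion molecule gene L1cam read 10.71 and 11.11 with vehicle and 11.53 and 11.75 with deltamethrin, at 0.73 ± 0.21 (adjusted p = 0.218). Stmn2, Tubb3 and Snap25, bright genes of the neuronal cytoskeleton and synapse, had estimates of -0.14, -0.23 and -0.36 and were not called. With the trend 4 targets were called higher, Syt4, L1cam, Syp and Vgf, and 1 lower, the granin gene Chgb. Over all probe sets 2.25% were called higher and 1.38% lower, while 22 of the 27 targets were above the median of all probe sets.

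In the list of proneural factors and E proteins 4 of 16 measured genes were above the median of all probe sets, so most of the proneural factors themselves were too dim to compare. In limma 0 were called (2 at an unadjusted p below 0.05), and the median was -0.11. The E protein gene Tcf3, whose product pairs with NEUROD factors, read 8.80 and 9.12 with vehicle and 8.18 and 8.22 with deltamethrin. Both exposed arrays lay below both vehicle arrays, at -0.76 ± 0.18 (adjusted p = 0.179). A second E protein gene, Tcf4, read 16.25 and 16.34 with vehicle and 15.71 and 15.80 with deltamethrin, at -0.54 ± 0.17 (adjusted p = 0.248). The last of the E protein genes, Tcf12, overlapped at 0.01 ± 0.18. With the trend 1 gene of the list was called, Tcf4, lower.

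Notch signalling keeps progenitors undifferentiated, and Myt1 is known to oppose it. Of 21 measured Notch genes 0 were called in limma (4 at an unadjusted p below 0.05), with a median of -0.07. The effector Hey1 read 9.98 and 10.00 with vehicle and 10.72 and 10.63 with deltamethrin, at 0.69 ± 0.16 (adjusted p = 0.174), and was the 1 gene of the list called with the trend. The glycosyltransferase gene Lfng, which tunes ligand binding by Notch receptors, read 7.34 and 7.54 with vehicle and 6.86 and 6.52 with deltamethrin, at -0.75 ± 0.20 (adjusted p = 0.193). Its groups did not overlap, on the lower side. Rbpj, the DNA-binding partner of Notch, was at 0.38 ± 0.19, and Numb, an inhibitor of Notch, at 0.12 ± 0.18. The related effector Hes1, a gene that Myt1l is known to repress, was dim, with 3.0 on both vehicle arrays and 3.55 and 2.72 on the deltamethrin arrays.

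Other SOX genes showed 0 calls in limma among 15 measured (0 at an unadjusted p below 0.05, 0 with the trend). Only 5 of the 15 were above the median of all probe sets, so most were too dim to compare. The median log2 change of the list was 0.01 and turned to -0.04 under quantile normalization. Sox12, the remaining relative of Sox4 and Sox11, was at 0.01 ± 0.17. Sox9, a progenitor factor, was at -0.26 ± 0.18 (adjusted p = 0.585). The genes of smallest p, Sox10 and Sox7, were dim in both groups, at 0.30 and 0.28.

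Among other neuronal transcription factors 0 of 20 measured genes were called in limma (5 at an unadjusted p below 0.05), 13 estimates were lower, and the median was -0.23. Only 10 of the 20 were above the median of all probe sets. Isl1, a LIM-homeodomain factor of sympathetic and motor neurons, read 13.15 and 12.92 with vehicle and 11.91 and 11.88 with deltamethrin. Its groups were well apart (-1.14 ± 0.17, adjusted p = 0.074), and it was the 1 gene of the list called with the trend. Ebf1, a helix-loop-helix factor of differentiating neurons, read 5.97 and 5.59 with vehicle and 5.18 and 4.86 with deltamethrin, at -0.76 ± 0.21 (adjusted p = 0.216), with a mean below the median of all probe sets.

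**Figure D3:**
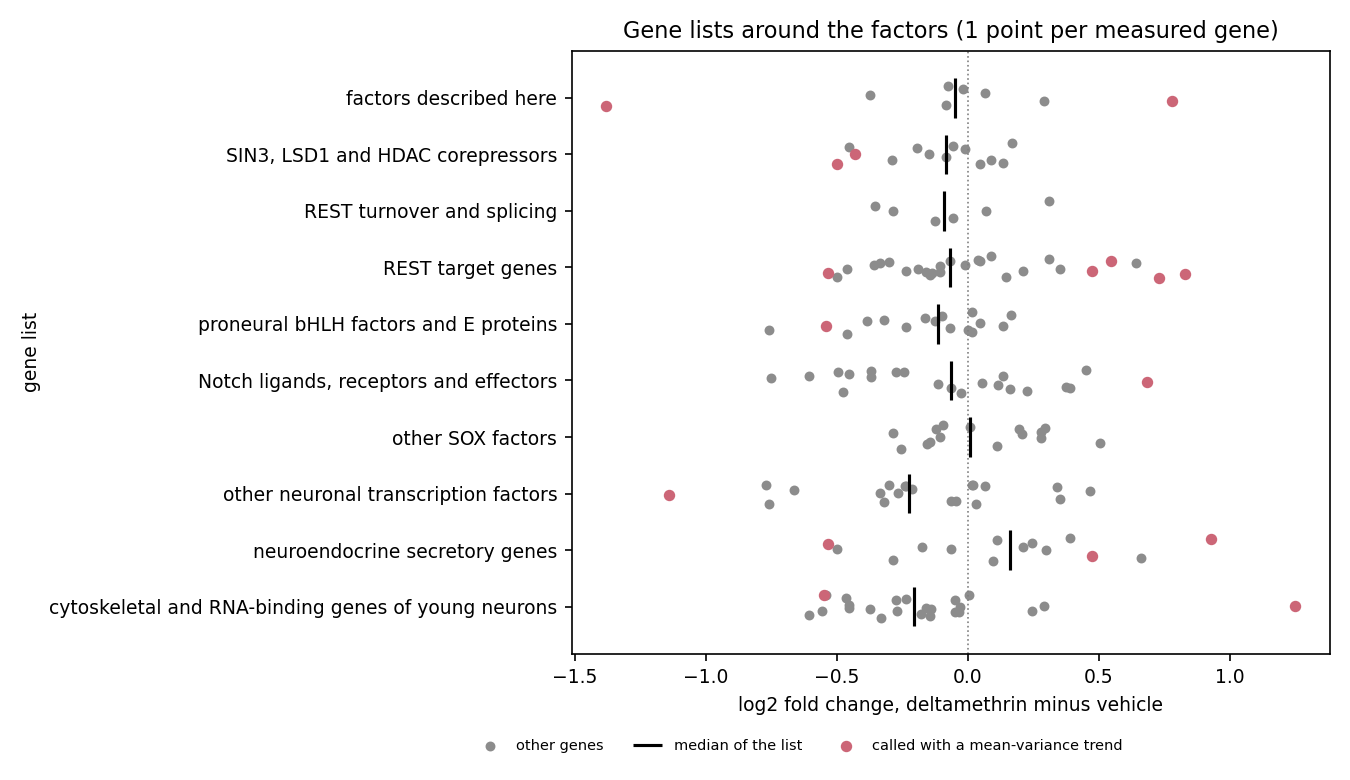
Log2 fold change of each measured gene in the 9 lists and in the set described here (points), with the list median as a black bar. Red points are genes called with a mean-variance trend. Medians lie between -0.23 and 0.16, and each list but the SOX genes and the genes that process Rest holds at least 1 red point.

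Secretory and structural genes of neurons close the set. Of 14 measured neuroendocrine secretory genes 0 were called in limma (5 at an unadjusted p below 0.05, against 13.7% of all probe sets), and the median was 0.16. Scg2, a secretogranin of dense-core vesicles, read 14.48 and 14.41 with vehicle and 15.25 and 15.50 with deltamethrin, at 0.93 ± 0.18 (adjusted p = 0.121). Its relative Chgb went the other way, from 14.17 and 14.12 to 13.57 and 13.65, at -0.53 ± 0.16 (adjusted p = 0.248). With the trend Scg2 and Vgf were called higher and Chgb lower, so granin genes stood on both sides.

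Of 24 measured cytoskeletal and RNA-binding genes of young neurons, 20 had lower estimates, with a median of -0.21. In limma 0 were called (6 at an unadjusted p below 0.05, against 13.7% of all probe sets). Groups did not overlap for 14 genes on the lower side and 3 on the higher side, where all probe sets gave 23.5% and 20.3%. The stathmin gene Stmn4 stood apart on the higher side, from 8.18 and 8.0 to 9.18 and 9.50, at 1.25 ± 0.19 (adjusted p = 0.074). The intermediate filament gene Ina read 15.06 and 14.94 with vehicle and 14.55 and 14.35 with deltamethrin, at -0.55 ± 0.17 (adjusted p = 0.262). With the trend 1 gene was called higher, Stmn4, and 1 lower, Ina.

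**Figure D4:**
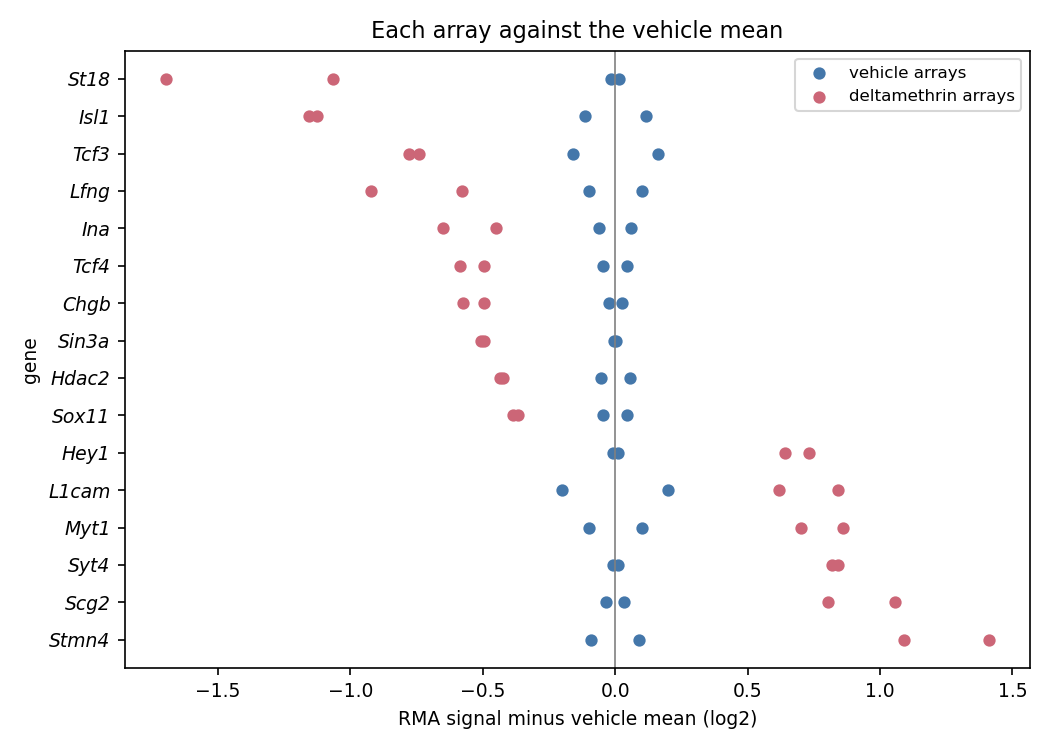
Signal of each array minus the vehicle mean (log2) for St18, Myt1, Sox11 and named genes of the lists, blue for vehicle and red for deltamethrin arrays (2 each). St18 has the lowest deltamethrin array, at -1.69, and the highest deltamethrin arrays are those of Stmn4.

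Profiles nearest to those of the 3 genes without overlap were found by Euclidean distance over the 4 arrays, each gene centred on its own mean, among 9966 to choose from per gene. Nearest to St18 were Slc25a10, a mitochondrial dicarboxylate carrier, at a distance of 0.207, the replication licensing gene Cdc6 at 0.237 and the DNA repair gene Xrcc3 at 0.274. Their log2 changes were -1.22, -1.60 and -1.16, and in each, deltamethrin array 2 was the lower of the pair. Both the similar changes and this order follow from the choice by distance. Nearest to Myt1 were Ric8a (distance 0.0283), the ATG8 family gene Gabarap (0.0458) and Tmed3 (0.0721). Nearest to Sox11 were the Fanconi gene Fancm (0.01), Tmem184c (0.0218) and the corepressor gene Cbfa2t2 (0.0296). The genes nearest to St18 lay farther from it than those nearest to Myt1 and Sox11 lay from theirs. With only 4 arrays, a near profile among this many genes need not mean a link.

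The measured protein-coding genes next to these 3 in the RefSeq gene order were read as well. Beside St18, Alkal1 was dim at 0.07 ± 0.16 and Pcmtd1 was at 0.14 ± 0.17. Pcmtd1 read 10.18 and 10.24 with vehicle and 10.28 and 10.43 with deltamethrin, and both neighbours of St18 were higher without overlap between groups. Beside Myt1, Oprl1 was at 0.16 ± 0.17, higher without overlap, and Pcmtd2 at 0.10 ± 0.22, with overlap. Beside Sox11, Cmpk2 was at -0.45 ± 0.19 (adjusted p = 0.366) and Dcdc2c, which was dim, at -0.41 ± 0.21 (adjusted p = 0.456), both lower without overlap. Over all probe sets 23.5% were lower and 20.3% higher without overlap, and 0 of these 6 neighbours were called in limma.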

How the data were processed

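Total RNA of Neuro-2a cells was read on 4 Clariom S Mouse arrays, 2 per group, with groups taken from the sample titles. The authors deposited log2 values, 1 per probe set and array, for which the submitters' processing notes name RMA and Transcriptome Analysis Console. Their versions, the RMA variant and the genome build are not stated there. RMA aligns the arrays' distributions, so a shift shared by most genes would not show. The log2 scale was read from the values, which span 1.92 to 18.75. Gene names came from the platform annotation (19572 of 22206 probe sets had 1 symbol), and the 8 measured members matched RefSeq by Entrez ID.

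Deltamethrin minus vehicle was fitted over all probe sets with limma 3.58.1 in R 4.3.3 (lmFit and eBayes, no trend, no block), two-sided, with Benjamini-Hochberg adjustment and a call at an adjusted p below 0.05. The fit was tested on simulated data. The number of arrays limits precision: the median SE was 0.19. The members and the 9 lists were chosen with earlier results of these data known. Of 168 list entries, 12 were not analysed here. Named genes were all members and, from each list, the 2 of smallest p, with the 3 brightest of the corepressor, Rest target and Notch lists. Other genes named were chosen after their values were seen. Likeness was computed for the 3 members of largest change. Alternatives were a replicate block, a filter at the 40th percentile of mean level, quantile, cyclic loess and median scaling, a mean-variance trend, statistics without moderation, a 0.01 threshold, the average over a gene's probe sets in place of the brightest, and leaving out each array.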

Additional observations from a re-analysis of the deposited data

How the results depend on the processing

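St18 stayed lower and Myt1 higher under all 11 alternatives to the fit. With 1 array left out, log2 changes ran from -1.69 to -1.06 for St18 and from 0.68 to 0.88 for Myt1. Sox11 stayed between -0.42 and -0.33. Most alternatives could not turn the signs of these genes. The replicate block, the filter, the trend and no moderation leave the estimate as it is. Where groups do not overlap, leaving out 1 array cannot turn the sign. Scaling could, and gave -1.39 to -1.37 for St18, 0.771 to 0.785 for Myt1 and -0.38 to -0.36 for Sox11. The signs of Myt1l (-0.29 to 0.12), Insm1 (-0.25 to 0.21), Sox4 (-0.23 to 0.08) and Rest (-0.15 to 0.28) turned in at least 1 alternative, and Neurod4 ran from 0.01 to 0.57 when 1 deltamethrin or vehicle array was left out. Quantile normalization moved the list medians to -0.06 for corepressors, -0.05 for genes that process Rest, -0.03 for Rest targets, -0.07 for proneural factors, -0.04 for Notch genes, -0.04 for other SOX genes, -0.19 for other neuronal factors, 0.16 for secretory genes and -0.17 for genes of young neurons, while the median of all probe sets moved by 0.02. Averaging a gene's probe sets moved the corepressor median from -0.085 to -0.056 and left the other list medians as they were. Of the members, 0 were called as the fit stands, 2 with a mean-variance trend (St18 and Myt1) and 1 without dim probe sets (St18). That filter also removed Neurod4. Over all probe sets the 96 calls became 806 with the trend, 312 without dim probe sets, 5 at an adjusted p below 0.01, 0 without moderation (2293 at an unadjusted p below 0.05) and 0 with any 1 array left out (1631 to 2779 at an unadjusted p below 0.05). With the trend the calls in lists became 2 for corepressors, 5 for Rest targets, 1 for proneural factors, 1 for Notch genes, 1 for other neuronal factors, 3 for secretory genes and 2 for genes of young neurons. With the replicate number as a block there were 0 calls (3221 at an unadjusted p below 0.05); the labels do not say that equal numbers pair the arrays, and deviations of equal numbers correlated at 0.127 over all probe sets. The causes were not tested.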
